A study of Homo sapiens with 12 samples.

Results

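Nuclear-encoded genes of oxidative phosphorylation were described in Jurkat, an established line of leukaemic human T cells. The members were found by gene symbol: the subunits of complex I (NDUFA, NDUFB, NDUFC, NDUFS, NDUFV and NDUFAB1), complex II (SDH), complex III (UQCR and CYC1), complex IV (COX) and complex V (ATP5, with the ATP synthase inhibitor ATP5IF1). The rule found 77 of the 19775 genes named on the arrays, 33 in complex I, 3 in complex II, 7 in complex III, 16 in complex IV and 18 in complex V. One probe set stood for each gene, the one with the highest mean over the 12 arrays. A further 6 genes of the rule had only probe sets that name several genes (NDUFC2, NDUFS5, NDUFS8, UQCRH, UQCRHL and ATP5MF-PTCD1).

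The cells carried either a control vector or a construct for miR-21, and all grew in the same medium with 10% serum. RNA came from 3 fractions. Total RNA is the starting material, AGO2 IP is RNA pulled down through AGO2, an Argonaute protein loaded with miRNAs, and IgG IP is the background of a control antibody. Each of the 6 groups had 2 arrays, numbered replicates 1 and 2; the labels do not say whether these were separate cultures, so the p-values measure the spread between these samples, which may be technical. Every Total RNA array was labelled from 1 ug and every IP array from 100 ng of RNA, so fraction and labelled amount cannot be told apart. Values are log2 intensities, and all values below are for the control vector first and the miR-21 construct second.

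Oxidative phosphorylation takes place in the inner mitochondrial membrane. Complexes I and II pass electrons from NADH and succinate to ubiquinone, complex III passes them on to cytochrome c and complex IV to oxygen. Complexes I, III and IV pump protons as they do so, and complex V, the ATP synthase, makes ATP from the returning protons. Except for complex II, each complex also holds subunits encoded by mitochondrial DNA, which were outside the rule. T cells, leukaemic ones included, use these complexes beside glycolysis to supply ATP and to regenerate NAD.

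The miRNA that the construct carries is shown for its seed (bases 2 to 8, in capitals), the part that pairs with target transcripts. It is the RefSeq mature sequence (GRCh38.p14, chr17:59841273-59841294, plus strand). The series was designed to find transcripts that miR-21 brings to AGO2.

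hsa-miR-21-5p: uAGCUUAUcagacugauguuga

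Promoters of the members are shown where those members fell together in AGO2 IP against Total RNA, as given below. That difference compares fractions of RNA and does not measure transcription. RefSeq promoters (GRCh38.p14, 250 bases before to 50 after the start of a gene) were found for 65 members. They were searched on both strands for 3 motifs of factors known to act on respiratory genes. The ETS motif CCGGAAGT, of the kind bound by GABPA, was in 9 of 65 (13.85%), against 8.43% of the promoters of all genes tested and 4.138% of all promoters. The NRF1 motif GCATGCGC was in 12 (18.46%, against 5.398% and 3.053%), and the YY1 motif AAGATGGCG was in 7 (10.77%, against 3.814% and 1.748%). The letters of the 3 motifs did not overlap one another in these promoters, while an NRF1 site can match on both strands at once. Among the 18 promoters found of members that fell, 4 held the ETS motif and 1, that of NDUFS7, held the other motifs. These 5 are printed as 30-base windows along the gene's strand, with the motif in capitals (ETS in the first 4, NRF1 in NDUFS7). A match of letters is not a measured binding site. Whether the motifs bear on the falls was not tested.

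UQCRQ, chr5:132866579-132866608, plus strand: tggtatctcCCGGAAGTtacctcacgacct
UQCR11, chr19:1605559-1605588, minus strand: caaccctcgCCGGAAGTtactgtaagtggc
NDUFA13, chr19:19516206-19516235, plus strand: cgcccgggaCCGGAAGTgtgggatactgcg
ATP5MK, chr10:103396615-103396644, minus strand: gcaattcttCCGGAAGTgtgggcgggctca
NDUFS7, chr19:1383825-1383854, plus strand: ccggtttccGCATGCGCtccgagccgcttt

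Counted from the first base of the gene as 0, the motif began at -54 in UQCRQ, at -117 in UQCR11, at -10 in NDUFA13, at -160 in ATP5MK and at -73 in NDUFS7.

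Of the 77 members, 72 had a mean of at least 4.02 (the median of the non-control probe sets) and were tested with all 12824 genes that passed this filter. That included all members of complexes I, II and III, 12 of 16 in complex IV and 17 of 18 in complex V. The 5 below it were COX6B2, COX7B2 and COX8C, isoforms known from testis, COX7A1, the heart and muscle isoform, and ATP5MF, a membrane subunit of the ATP synthase. ATP5MF was measured by 1 probe set (mean 3.71), and probe sets that name several genes were left out. Whether its low value belongs to that probe set was not tested. COX8C stood between 1.83 and 2.83 on the 12 arrays. Of the other tissue-restricted isoforms, COX6A2 (4.01 to 4.77) and COX4I2 (4.06 to 4.86) lay close to the filter. As for the cells, 11 of 11 T cell markers were at or above the filter (median 8.73 in Total RNA), against 3 of 6 B cell, 2 of 5 monocyte and 2 of 5 epithelial markers.

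The arrays differed in ways that the groups do not explain. Array means were 4.39 to 4.41 in replicate 1 and 5.26 to 5.27 in replicate 2. The 3' minus 5' signal of ACTB, which is high in degraded or truncated RNA, was 1.35 to 1.38 in Total RNA, 2.08 to 2.18 in IgG IP and 1.97 to 4.0 in AGO2 IP of replicate 1. In replicate 2 it was 3.18 to 3.53, 2.57 to 3.48 and 2.08 to 2.58. In replicate 2 the arrays of the 2 antibodies did not separate by their labels: within a construct they were nearly alike. Over the 72 members, the SD of AGO2 IP minus IgG IP was 0.672 (control vector) and 0.691 (miR-21) in replicate 1, and 0.09 and 0.182 in replicate 2. In replicate 2 it was the constructs that stood apart in both IPs: the SD between the control vector and miR-21 arrays was 0.69 in IgG IP and 0.666 in AGO2 IP, against 0.136 and 0.299 in replicate 1 and 0.117 to 0.139 in Total RNA. The labels of AGO2 IP with the control vector and IgG IP with miR-21 in replicate 2 may therefore be exchanged, which was not tested. Every value that uses an IP array of replicate 2, the comparisons with Total RNA included, is given by the labels as they stand.

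AGO2 IP was compared with Total RNA to see how strongly the transcripts of each complex were represented in the purified fraction. They were mostly lower there: the median log2 difference over the 72 members was -0.66, against -0.05 over all genes tested, and 54 of 72 were below 0. Differences ran from -2.27 in NDUFB11 to 2.0 in NDUFV3. With the replicate number as a block in the model, 21 members (29.2%) fell and 1 (1.39%) rose, where 11.3% of all genes tested fell and 4.71% rose (limma, Benjamini-Hochberg adjusted p under 0.05). Without the block, limma called 0 members and 0 genes in all (28 members with an unadjusted p under 0.05; the lowest adjusted p among them was 0.366), so "fell" and "rose" refer to the model with the block unless a replicate is named. With each array centred on the median of the genes tested, 14 members fell and 2 rose with the block, where 5.47% of all genes fell and 7.93% rose. "Fell" and "rose" here describe the IP against Total RNA, its starting material, not a change of transcript level in the cells. Between the constructs, fewer cells that hold a transcript and less of it per cell cannot be told apart in bulk RNA.

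**Figure D1:**
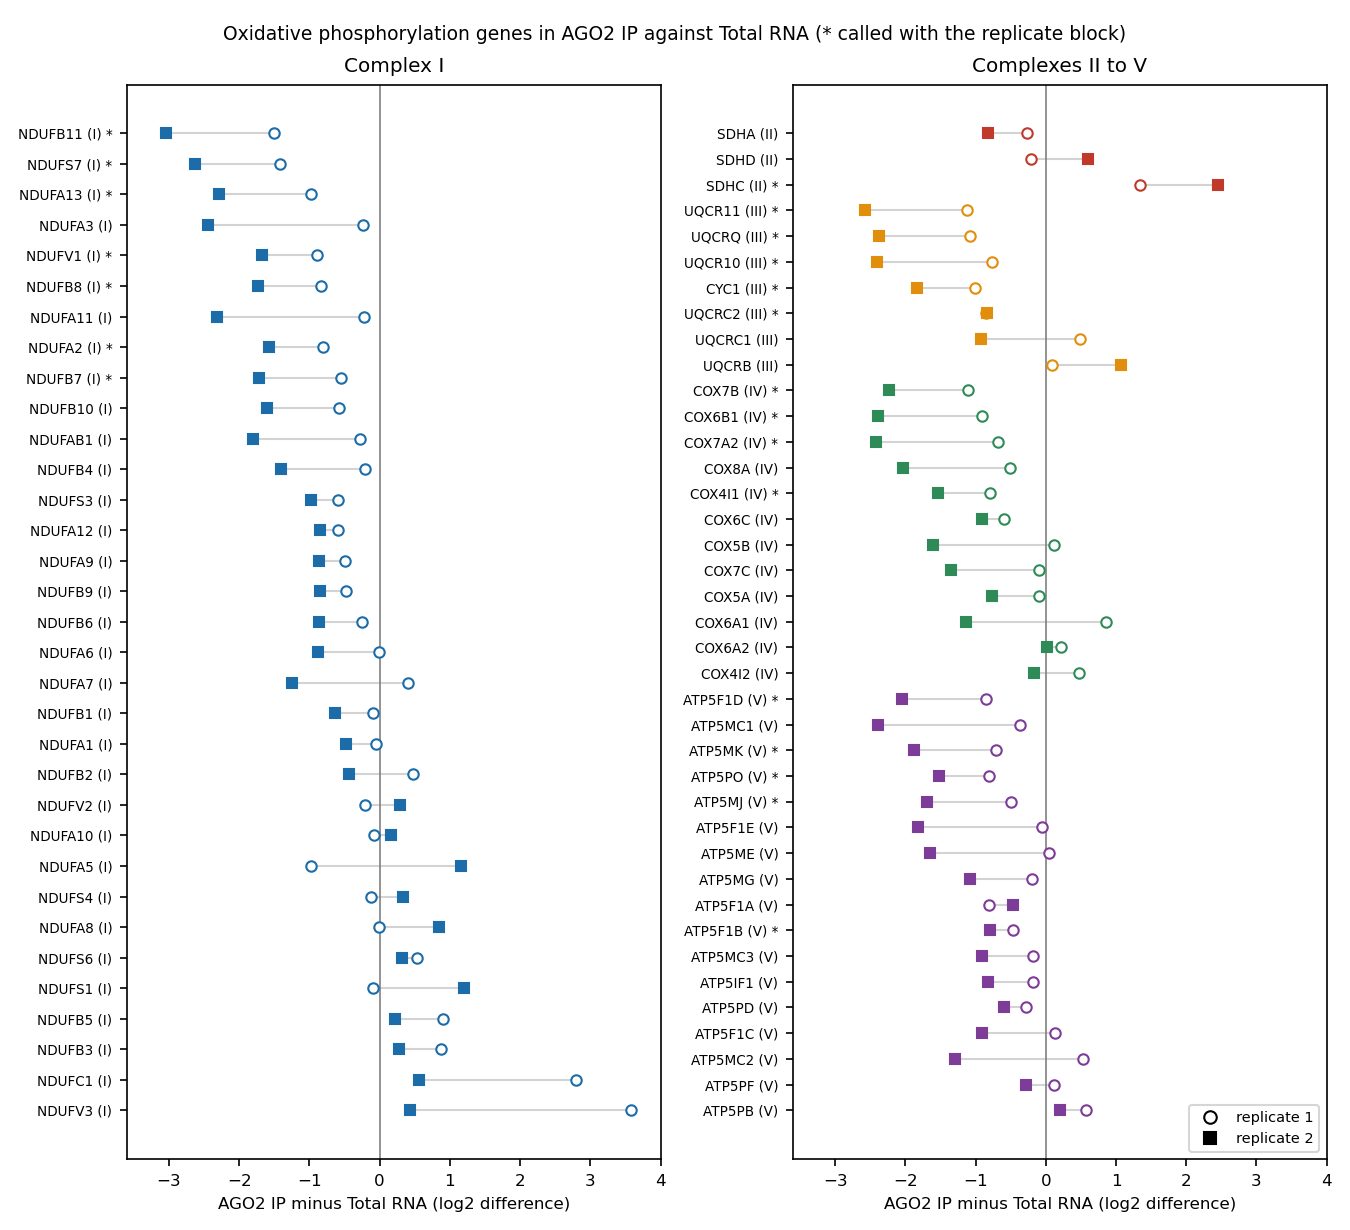
AGO2 IP minus Total RNA (log2 difference) for the 72 members tested, each the mean of both constructs in replicate 1 (open circles) and replicate 2 (filled squares), by complex; a star marks the 22 members called with the replicate block. Most points lie left of 0, further in replicate 2 (median -0.92) than in replicate 1 (median -0.23), while SDHC, NDUFV3 and NDUFC1 lie right of 0 in both.

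In complex I, the entry point for NADH, 7 of 33 members fell and 0 rose; the median was -0.56. NDUFB11, an accessory subunit of the membrane arm, stood at 10.55 and 10.58 in Total RNA, 9.41 and 9.41 in IgG IP and 9.20 and 8.92 in AGO2 IP in replicate 1, and 11.58 and 11.30, 8.06 and 8.97 and 8.10 and 8.71 in the same order in replicate 2. All Total RNA arrays were above all IP arrays. Its difference was -2.27 ± 0.39 (SE; adjusted p = 0.0148). NDUFS7, a core subunit with the last iron-sulfur cluster before ubiquinone, stood at 9.01 and 8.89 in Total RNA, 7.94 and 8.12 in IgG IP and 7.52 and 7.53 in AGO2 IP in replicate 1, and 10.39 and 10.17, 7.78 and 7.92 and 7.72 and 7.57 in the same order in replicate 2. Here too all Total RNA arrays were above all IP arrays. The difference was -2.03 ± 0.31 (SE; adjusted p = 0.0119). NDUFV1, the core subunit that takes electrons from NADH, fell by 1.29 (SE 0.24); it was at 10.00 and 10.35 in Total RNA and 9.39 and 9.16 in AGO2 IP of replicate 1, and at 10.63 and 10.46 and 8.90 and 8.84 in replicate 2. The others that fell were accessory subunits: NDUFA13 (-1.63 ± 0.33), NDUFB8 (-1.28 ± 0.28), NDUFA2 (-1.19 ± 0.30) and NDUFB7 (-1.13 ± 0.29). NDUFB10 (-1.09, adjusted p = 0.0523) and NDUFS3, another core subunit (-0.78, adjusted p = 0.0531), missed the threshold.

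Some members of complex I went the other way. NDUFV3, an accessory subunit next to the NADH site, stood at 8.85 and 8.88 in Total RNA, 9.25 and 9.01 in IgG IP and 12.69 and 12.21 in AGO2 IP in replicate 1, and 9.72 and 9.63, 8.85 and 11.37 and 8.88 and 11.33 in the same order in replicate 2. In replicate 1 both AGO2 IP arrays were far above the other 4; in replicate 2 both miR-21 IP arrays were above Total RNA and both control vector IP arrays below it. The mean difference, 2.0 ± 0.80 (SE; adjusted p = 0.118), was therefore 3.58 in replicate 1 and 0.43 in replicate 2. NDUFC1, a small subunit of the membrane arm, had the same layout, at 10.94 and 10.94 in Total RNA, 11.52 and 11.44 in IgG IP and 13.59 and 13.89 in AGO2 IP in replicate 1, and 12.17 and 12.14, 11.87 and 13.78 and 11.86 and 13.58 in the same order in replicate 2. Its difference was 1.68 ± 0.55 (SE; adjusted p = 0.0676). Second probe sets of NDUFV3 (1.78) and NDUFC1 (0.91) were higher in AGO2 IP too. NDUFS1, the largest iron-sulfur core subunit, was at 0.55 ± 0.29, made of -0.09 in replicate 1 and 1.20 in replicate 2. Its 3 other probe sets at or above the filter were lower in AGO2 IP (-0.186, -1.485 and -0.275).

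**Figure D2:**
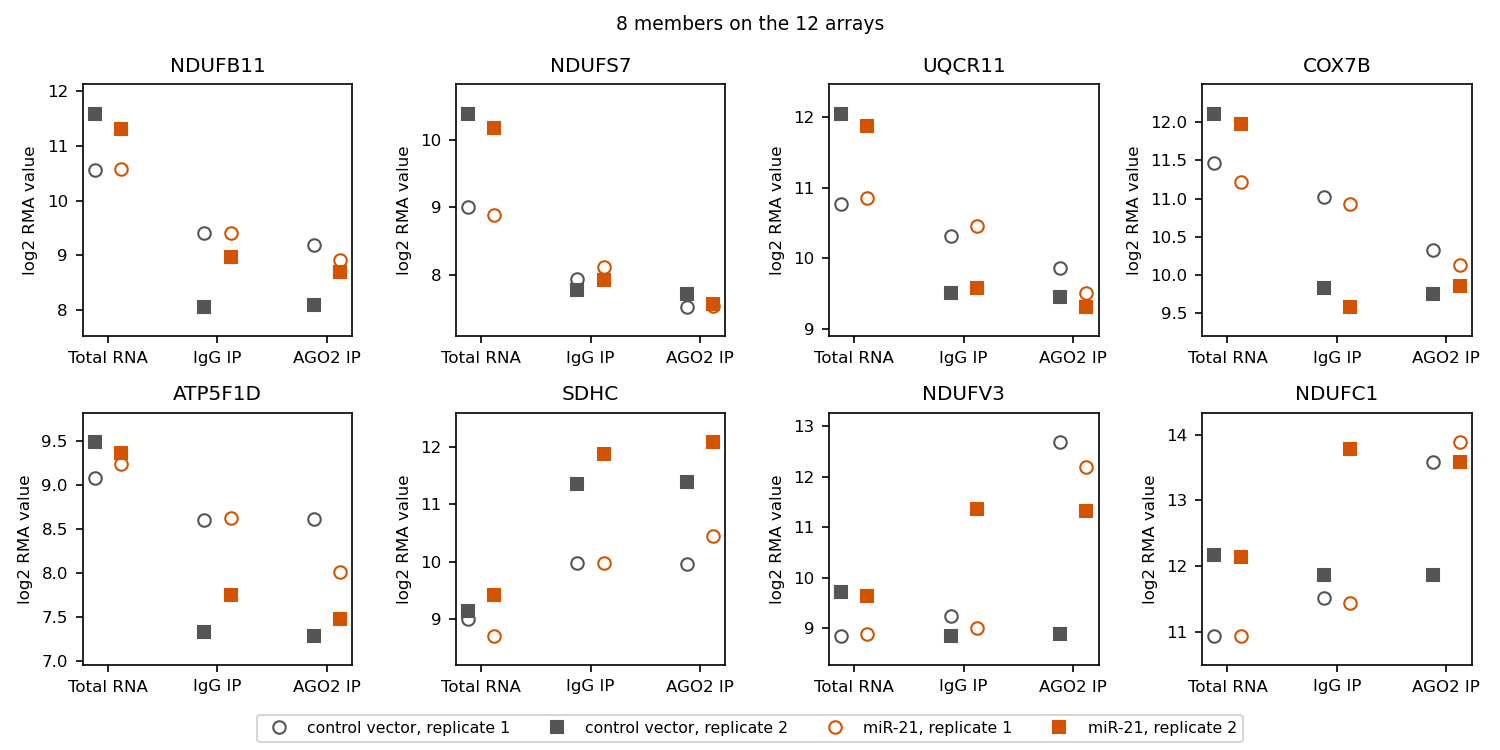
Log2 value of 8 members on each of the 12 arrays by fraction, with control vector in grey, miR-21 in orange, replicate 1 as open circles and replicate 2 as filled squares. NDUFB11, NDUFS7, UQCR11, COX7B and ATP5F1D are highest in Total RNA, SDHC is highest in the IPs, and NDUFV3 and NDUFC1 are high in AGO2 IP of replicate 1 and in both miR-21 IPs of replicate 2.

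Complex II, succinate dehydrogenase, which also serves the tricarboxylic acid cycle, was the one complex with a member that rose. SDHC, a membrane anchor subunit at the ubiquinone site, stood at 9.01 and 8.71 in Total RNA, 9.98 and 9.99 in IgG IP and 9.96 and 10.45 in AGO2 IP in replicate 1, and 9.15 and 9.41, 11.36 and 11.87 and 11.39 and 12.08 in the same order in replicate 2. All 8 IP arrays were above all 4 Total RNA arrays. The difference was 1.90 ± 0.29 (SE; adjusted p = 0.0119). Of its 6 probe sets at or above the filter, 5 were higher in AGO2 IP (1.02 to 1.93) and 1 was lower (-0.20). SDHD, the other anchor subunit, differed by 0.20 ± 0.25 and SDHA, the subunit that oxidises succinate, by -0.54 ± 0.20. Neither passed the threshold, though SDHA was lower in all 4 pairs of arrays that share a construct and a replicate.

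Complex III, which hands electrons from ubiquinol to cytochrome c, had the lowest median of the 5 complexes, -1.42, and 5 of its 7 members fell. UQCR11, a small subunit, stood at 10.77 and 10.85 in Total RNA, 10.32 and 10.45 in IgG IP and 9.87 and 9.51 in AGO2 IP in replicate 1, and 12.04 and 11.87, 9.50 and 9.57 and 9.45 and 9.31 in the same order in replicate 2. No IP array reached the lowest Total RNA array. The difference was -1.85 ± 0.38 (SE; adjusted p = 0.0197). CYC1, the cytochrome c1 subunit, stood at 9.93 and 9.67 in Total RNA, 9.63 and 9.58 in IgG IP and 8.67 and 8.90 in AGO2 IP in replicate 1, and 10.03 and 9.99, 8.12 and 8.29 and 8.16 and 8.19 in the same order in replicate 2. Within each replicate the IP arrays were below both Total RNA arrays, and by more in replicate 2. CYC1 changed by -1.42 ± 0.32 (SE; adjusted p = 0.0227). The small subunits UQCRQ (-1.73 ± 0.38) and UQCR10 (-1.58 ± 0.40) and the core protein UQCRC2 (-0.84 ± 0.23) fell as well. UQCRC1, the partner of UQCRC2 in the core, was at 9.81 and 9.99 in Total RNA and 10.21 and 10.58 in AGO2 IP of replicate 1, and at 10.44 and 10.32 and 8.89 and 10.03 in replicate 2. Its mean difference of -0.21 ± 0.35 did not pass, nor did that of UQCRB (0.58 ± 0.25).

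In complex IV, cytochrome c oxidase, 4 of the 12 members tested fell and 0 rose (median -0.75). COX7B, a small membrane subunit, stood at 11.46 and 11.21 in Total RNA, 11.03 and 10.93 in IgG IP and 10.34 and 10.13 in AGO2 IP in replicate 1, and 12.11 and 11.97, 9.84 and 9.58 and 9.75 and 9.86 in the same order in replicate 2. Within each replicate the Total RNA arrays were above every IP array. Its difference was -1.67 ± 0.37 (SE; adjusted p = 0.0226). COX6B1, which faces the intermembrane space (-1.65 ± 0.40), COX7A2 (-1.55 ± 0.43) and COX4I1, the common isoform of the largest nuclear-encoded subunit (-1.17 ± 0.26), fell too. COX5A was at -0.43 ± 0.25 and COX4I2, the highest of those tested, at 0.16 ± 0.21; neither passed. In complex V, 5 of 17 fell and 0 rose (median -0.64). ATP5F1D, the delta subunit of the rotating stalk, stood at 9.09 and 9.24 in Total RNA, 8.61 and 8.63 in IgG IP and 8.61 and 8.02 in AGO2 IP in replicate 1, and 9.49 and 9.37, 7.33 and 7.75 and 7.29 and 7.48 in the same order in replicate 2. All Total RNA arrays were above all IP arrays. Its difference was -1.45 ± 0.31 (SE; adjusted p = 0.0219). ATP5F1B, the catalytic beta subunit, fell by 0.63 (SE 0.18), while its partner alpha, ATP5F1A, did not pass at a like size (-0.64 ± 0.21, adjusted p = 0.0695). The small membrane subunits ATP5MK (-1.29 ± 0.33) and ATP5MJ (-1.09 ± 0.32) and ATP5PO, which joins the stator stalk to the head (-1.16 ± 0.25), fell. ATP5PB, another stator subunit, was the highest at 0.38 ± 0.17 and did not pass.

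The 2 replicates gave the same side more often than the same size. Across the 72 members, r between the replicates' AGO2 IP minus Total RNA differences was 0.582, against 0.381 across all genes tested; genes are not independent replicates, and each replicate has its own arrays. Both replicates were lower in 46 members (63.9%, against 32.9% of all genes) and both higher in 9 (12.5%, against 25.3%). All 4 pairs of arrays were lower in 41 members and higher in 5, where 23.8% and 14.1% of all genes were. The median was -0.23 in replicate 1 and -0.92 in replicate 2, against -0.11 and -0.02 over all genes, and 61 of 72 members were lower in replicate 2 than in replicate 1. Within replicate 1 alone, 24 members fell and 8 rose (23.3% and 13% of all genes), and within replicate 2, 45 fell and 5 rose (19.4% and 15.8%). These falls are 33.3% of the members in replicate 1 and 62.5% in replicate 2. Of the 21 members that fell with the block, 18 fell within each replicate, and NDUFB7, ATP5MJ and ATP5F1B did not within replicate 1. SDHC rose within each. The block model uses the same arrays, and its difference is the mean of the replicates' differences. This overlap is therefore partly built in and is not independent support. NDUFA5 fell within replicate 1 (-0.98) and rose within replicate 2 (1.15), and ATP5MC2, a subunit of the proton-driven ring, did the opposite (0.53 and -1.30).

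**Figure D3:**
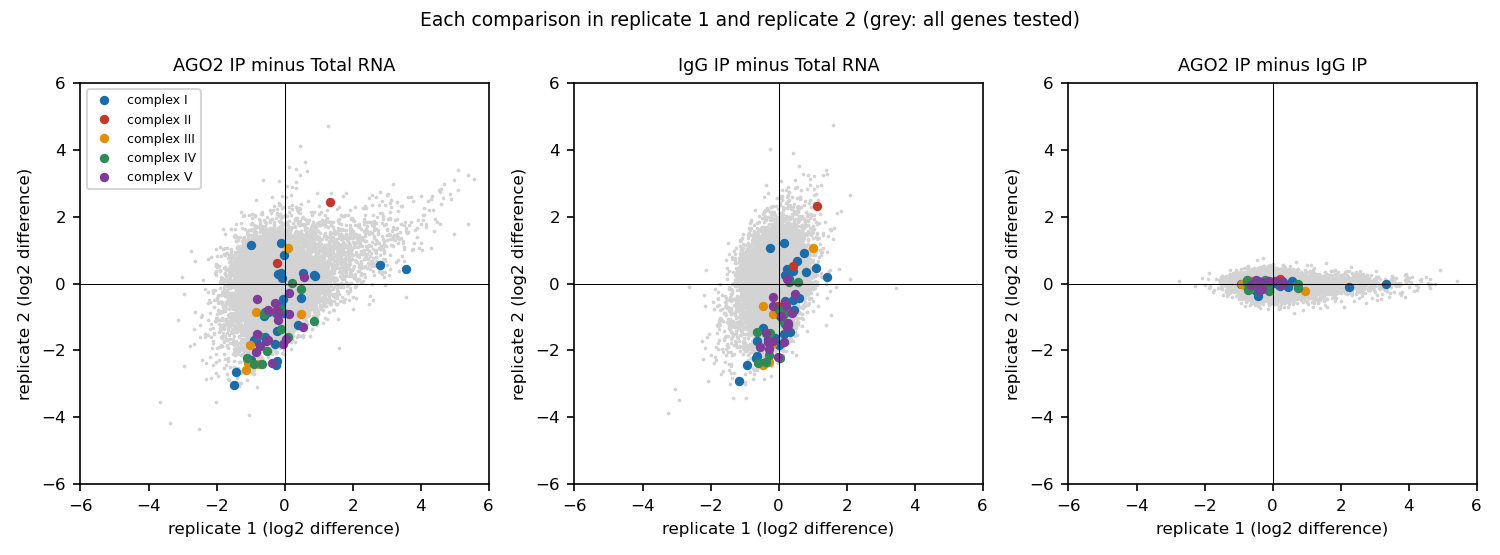
Log2 difference of every gene tested in replicate 1 (x axis) against replicate 2 (y axis), each the mean of both constructs, for the 3 fraction comparisons; members are coloured by complex and all genes are grey. In AGO2 IP and IgG IP against Total RNA the members spread downwards in replicate 2, and in AGO2 IP minus IgG IP they spread along replicate 1 only (SD 0.663 against 0.096).

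Values that moved with this comparison are given here, and their part in the result was not tested. The GAPDH 3' minus 5' signal was 0.14 to 0.22 in Total RNA and 0.35 to 1.95 in AGO2 IP of replicate 1, and 0.58 to 0.71 and 1.02 to 1.05 in replicate 2. That of ACTB, given above, was higher in AGO2 IP than in Total RNA of replicate 1 and lower in replicate 2. Leaving out a single array ended all calls of members with the block for 4 of the arrays: either miR-21 AGO2 IP array, or either Total RNA array of replicate 2. With each array centred on the genes tested, the median of all genes was 0.14 and the members' median -0.46; centring moves both by the same amount. Of 36 members with several probe sets at or above the filter, 20 were lower in AGO2 IP by every one, 6 higher and 10 mixed. Other probe sets at or above the filter of NDUFS7 (-0.03), NDUFA2 (0.06), NDUFV1 (0.17) and UQCR11 (0.14), which fell by the probe set used, averaged near 0. That of COX7B, which fell too, averaged 0.03, from -1.03 in replicate 1 and 1.09 in replicate 2. Their means over the 12 arrays were low in NDUFA2 (4.37), NDUFV1 (4.44), NDUFS7 (4.70) and COX7B (5.02), against 6.29 in UQCR11.

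IgG IP was compared with Total RNA as the background of the purification. It shares the Total RNA arrays with the comparison above. The GAPDH 3' minus 5' signal was higher in IgG IP than in Total RNA, at 0.439 to 0.464 against 0.139 to 0.222 in replicate 1 and 1.141 to 1.605 against 0.575 to 0.713 in replicate 2; its part in the result was not tested. With the block 2 members fell, NDUFB11 (-2.04 ± 0.39 (SE; adjusted p = 0.0374)) and NDUFS7 (-1.67 ± 0.31 (SE; adjusted p = 0.0339)), and 1 rose, SDHC (1.73 ± 0.29 (SE; adjusted p = 0.0246)), where 1.62% of all genes fell and 0.296% rose. These 3 were also called in AGO2 IP. The members' median was -0.46 (all genes -0.01), with -1.0 in complex III, -0.68 in complex IV, -0.46 in complex V, -0.35 in complex I and 0.47 in complex II. The lowest and highest in each were NDUFB11 and NDUFA8 (0.84), SDHA (-0.35) and SDHC, UQCRQ (-1.45) and UQCRB (1.04), COX6B1 (-1.49) and COX4I2 (0.31), and ATP5F1D (-1.22) and ATP5PB (0.20). Without the block limma called 0 members (18 at an unadjusted p under 0.05).

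The replicates parted here. In replicate 1 the median was 0.05 and 2 members fell, NDUFB11 (-1.15) and NDUFS7 (-0.92), while UQCRB (0.998), NDUFB3 (1.42) and NDUFS6 (1.09) rose (2.99% of all genes fell and 0.772% rose). In replicate 2 the median was -0.95, 44 members fell and 5 rose (16.6% and 14.7%). CYC1 shows the contrast: IgG IP minus Total RNA was -0.19 in replicate 1 and -1.81 in replicate 2. All 4 pairs were lower in 26 members and higher in 11, against 19.3% and 12.5% of all genes. Across members, r between the replicates was 0.754, against 0.229 across all genes. Calls in this comparison rested on most single arrays: with the block, 0 members were called without any 1 of 8 of the 12 arrays (all 4 IgG IP arrays, both miR-21 AGO2 IP arrays and both Total RNA arrays of replicate 2), 1 without Total RNA of miR-21 cells in replicate 1, and 6 without either control vector AGO2 IP array. With arrays centred on the genes tested, SDHC was the 1 member called (0.678% of all genes fell and 0.421% rose).

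**Figure D4:**
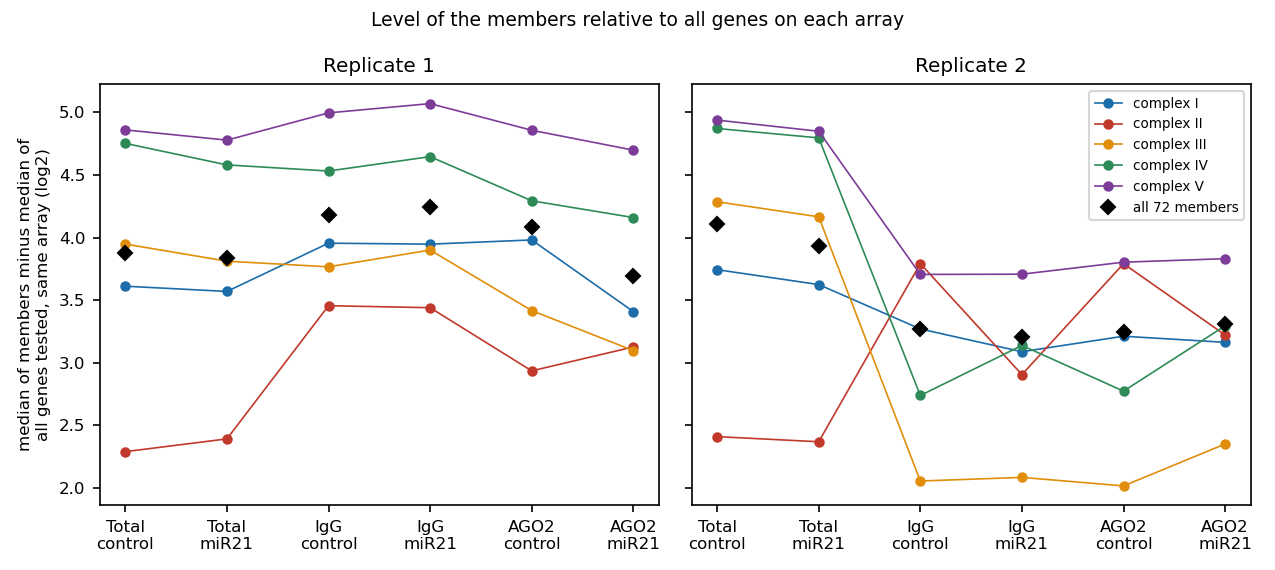
Median log2 value of the members tested minus the median of all genes tested on the same array, for each of the 12 arrays, by complex (coloured lines) and for all 72 members (diamonds). Along each line, complexes I, III, IV and V drop from Total RNA to both IPs in replicate 2, and complex II is higher in the IPs. Levels of different complexes are not comparable, since probe sets differ.

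The plot of medians by array sets the members' median against that of all genes tested on the same array. In replicate 1 the members' median exceeded that of all genes by 3.88 and 3.84 in Total RNA, 4.18 and 4.24 in IgG IP and 4.08 and 3.69 in AGO2 IP. For the control vector this gap was thus wider in AGO2 IP than in Total RNA, although the median of the members' own differences between the same arrays was -0.25 (all genes -0.14), so the measures differ there. In replicate 2 it did so by 4.11 and 3.93 in Total RNA, 3.27 and 3.21 in IgG IP and 3.25 and 3.31 in AGO2 IP. The 4 IP arrays of replicate 2 were thus below all other arrays, whichever the antibody.

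AGO2 IP was then set against IgG IP, the comparison that takes out the antibody background. With the block 0 members were called, as were 0 genes in all, and 0 members had an unadjusted p under 0.05 (limma; smallest adjusted p 0.819). The median was -0.24, against -0.08 over all genes, and the extremes were NDUFS4 (-0.48 ± 0.24), an accessory subunit of the matrix arm, and NDUFV3 (1.66 ± 0.80). In the other complexes the lowest and highest were SDHD (-0.28) and SDHC (0.17), UQCRB (-0.45) and UQCRC1 (0.36), COX7A2 (-0.46) and COX6A1 (0.37), and ATP5F1A (-0.34) and ATP5PB (0.18). All 4 pairs were lower in 23 members and higher in 0, against 13.1% and 5.63% of all genes. Across members, r between replicates was -0.014 (all genes -0.002).

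Within replicate 1 alone, where the antibodies gave different arrays, 17 members fell and 5 rose (11.5% and 12.5% of all genes); within replicate 2, 0 members and 0 genes were called. Those that rose in replicate 1 were NDUFV3 (3.32), NDUFC1 (2.26), UQCRC1 (0.96), COX5B, the zinc-binding subunit (0.75), and COX6A1, the common isoform of a small subunit (0.73). Those that fell ranged from NDUFS4 (-0.93) to ATP5MC3 (-0.58), 8 of them in complex I, 5 in complex III, 3 in complex IV and 1 in complex V. UQCRB (-0.90), CYC1 (-0.82) and NDUFA8 (-0.77) followed NDUFS4. In replicate 2 the same 5 that rose were between -0.24 (UQCRC1) and 0.0003 (COX6A1). Each replicate has 1 array per construct and fraction, so these calls compare 2 arrays with 2.

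The 5 members that rose between the antibodies in replicate 1 differed between the constructs in replicate 2, while the 17 that fell there were mixed. COX6A1 stood at 12.08 and 12.06 in Total RNA, 12.19 and 12.20 in IgG IP and 12.89 and 12.97 in AGO2 IP in replicate 1, and 12.73 and 12.72, 10.54 and 12.65 and 10.65 and 12.55 in the same order in replicate 2; in replicate 2 both control vector IP arrays were the lowest of all. For the 5 members that rose in AGO2 IP against IgG IP of replicate 1, miR-21 minus control vector in replicate 2 was 1.42 to 2.53 in IgG IP and 1.14 to 2.44 in AGO2 IP. Of the 17 that fell, 3 were above 0 in each. They ran from -0.53 (NDUFA5) to 0.18 (UQCRQ) in IgG IP and from -0.80 (COX7A2) to 0.30 (UQCRQ) in AGO2 IP. Some were near 0 in both, as NDUFS3 was (-0.07 and -0.03). Over all genes tested, 47% and 48% were below 0. Across the 72 members, the AGO2 IP minus IgG IP difference of replicate 1 and the construct difference of replicate 2 correlated with r = 0.793 in IgG IP and 0.788 in AGO2 IP, but with 0.022 in Total RNA. Across all genes tested the values were 0.63, 0.649 and 0.031. The points come from separate arrays, and genes are not independent replicates. Fits without AGO2 IP with the control vector and IgG IP with miR-21 of replicate 2 describe the remaining arrays and test nothing further, since the pair was chosen with its values known. What remains of the IPs in replicate 2 is 1 AGO2 IP array with miR-21 and 1 IgG IP array with the control vector, so fraction and construct cannot be told apart there. AGO2 IP minus IgG IP was then 3.20 in NDUFV3 and 2.09 in NDUFC1, the 2 members past the threshold of the block model, both higher (5.95% of all genes were higher and 1.47% lower). In AGO2 IP against Total RNA, 17 members were past it as lower and 3 as higher, against 13.3% and 8.58% of all genes, and the members' median was -0.52. In IgG IP against Total RNA, 0 members were past it (0.351% of all genes were lower and 0.0468% higher).

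The construct was compared with the control vector in each fraction, the contrast on which the series was built. With the block, 0 members and 0 genes were called in Total RNA, in IgG IP, in AGO2 IP or in the interactions of construct with fraction. At an unadjusted p under 0.05 there was 1 member in all, NDUFA10, an accessory subunit of complex I, in AGO2 IP (0.57 ± 0.25; 0.81 in replicate 1 and 0.34 in replicate 2; unadjusted p = 0.0469 by limma); limma without the block gave 0 calls and 0 members under that p. The smallest adjusted p over the members was 0.99971. The members' median was -0.05 in Total RNA (all genes 0.02), 0.08 in IgG IP (0.04) and 0.01 in AGO2 IP (0.07), and for the interactions -0.07 (AGO2 IP against IgG IP) and 0.09 (AGO2 IP against Total RNA).

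In Total RNA the members differed little, and mostly to one side: 37 of 72 were lower with miR-21 in both replicates and 5 higher, against 21.7% and 29.1% of all genes, with medians of -0.02 and -0.09 in replicates 1 and 2. The highest with the same sign in both were UQCRC2 (0.14 ± 0.33), NDUFS1 (0.13) and NDUFA5 (0.11), and the lowest NDUFS6 (-0.34 ± 0.28), NDUFB7 (-0.25) and NDUFA7 (-0.22). By the same rule, the highest in IgG IP were COX6A1 (1.06 ± 0.70), COX5B (0.88) and ATP5F1E (0.80), the epsilon subunit of the ATP synthase, and the lowest NDUFS4 (-0.34), SDHD (-0.33) and NDUFS1 (-0.29). NDUFV3, whose replicates differed in sign, was above COX6A1 in IgG IP (1.14) and just below it in AGO2 IP (0.98). Under the rule, those in AGO2 IP were NDUFC1 (1.01 ± 0.78), COX6A1 (0.99) and COX5B (0.84), and COX7A2 (-0.56), COX4I2 (-0.47) and NDUFB3 (-0.40). The high values came from replicate 2, as COX6A1 in AGO2 IP shows with 0.08 in replicate 1 and 1.90 in replicate 2. Both replicates were lower with miR-21 in 12 members and higher in 29 in IgG IP (23.3% and 30.4% of all genes), and in 20 and 17 in AGO2 IP (16.7% and 29.5%). Leaving out 1 array without the block moved the construct median in Total RNA to between -0.55 and 0.45. A group is then left with 1 replicate number, so such medians include the offset between the numbers. Array means were 4.395 to 4.407 in replicate 1 and 5.256 to 5.269 in replicate 2.

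Of the members with the same sign in both replicates, the highest and lowest for the interaction in AGO2 IP against IgG IP were NDUFB5 (0.40 ± 0.43) and NDUFB7 (-0.55 ± 0.57), and in AGO2 IP against Total RNA NDUFC1 (1.03 ± 1.10) and NDUFV2 (-0.44 ± 0.39). The sign was negative in both replicates in 25 members and positive in 18 for the former (24.7% and 28.1% of all genes), and in 15 and 19 for the latter (17.6% and 28.2%).

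Other genes of the pathway were set beside the subunits in AGO2 IP against Total RNA. The medians of the assembly factors were not tested against that of the subunits (-0.66). Complex I factors were at 0.16 (17 genes), complex II at -0.58 (4), complex III at -0.43 (6), complex IV at -0.14 (22) and complex V at 0.04 (4). Of the complex I factors, NDUFAF6 (2.27 ± 0.60) and NDUFAF2 (1.18 ± 0.21) rose and ECSIT fell (-1.30 ± 0.27). Of the complex III factors LYRM7, which helps insert the iron-sulfur subunit, fell (-1.09). Of the complex IV factors COX10, an enzyme of haem synthesis, rose (1.08 ± 0.29), and COA3 (-1.94 ± 0.37), COX15 (-1.23), LRPPRC (-1.23) and SURF1 (-1.19) fell. None of the complex II or V factors was called with the block; 2 and 0 of them had an unadjusted p under 0.05 in limma. Genes for electron carriers, most of them for ubiquinone synthesis, had a median of 0.12 (15 genes), and 4 rose: ETFDH (1.74 ± 0.34), COQ2 (1.60 ± 0.30), PDSS1 (1.25 ± 0.31) and COQ7 (0.91 ± 0.27). COQ7 barely passed (limma with the block, adjusted p = 0.04996), with 0.30 in replicate 1 and 1.52 in replicate 2. For these lists and those below, 4.71% of all genes tested rose and 11.3% fell.

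Among 15 genes of the tricarboxylic acid cycle and pyruvate dehydrogenase (median -0.04), PDHB rose (0.98 ± 0.23) and MDH2, the mitochondrial malate dehydrogenase, fell (-1.59 ± 0.30). Among 12 regulators of mitochondrial biogenesis (median -0.15), PPARGC1B, a coactivator, fell (-0.97 ± 0.23). Of 75 mitochondrial ribosomal protein genes (median -0.40), 11 fell and 5 rose, and of 59 cytosolic ones (median -0.46), 20 fell and 1 rose. The share of falls was 14.7% and 33.9% in these lists, against 29.2% of the members and 11.3% of all genes tested. In IgG IP against Total RNA 1 gene of each ribosomal list fell and 1 cytosolic one rose, where 1.62% of all genes fell and 0.296% rose.

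**Figure D5:**
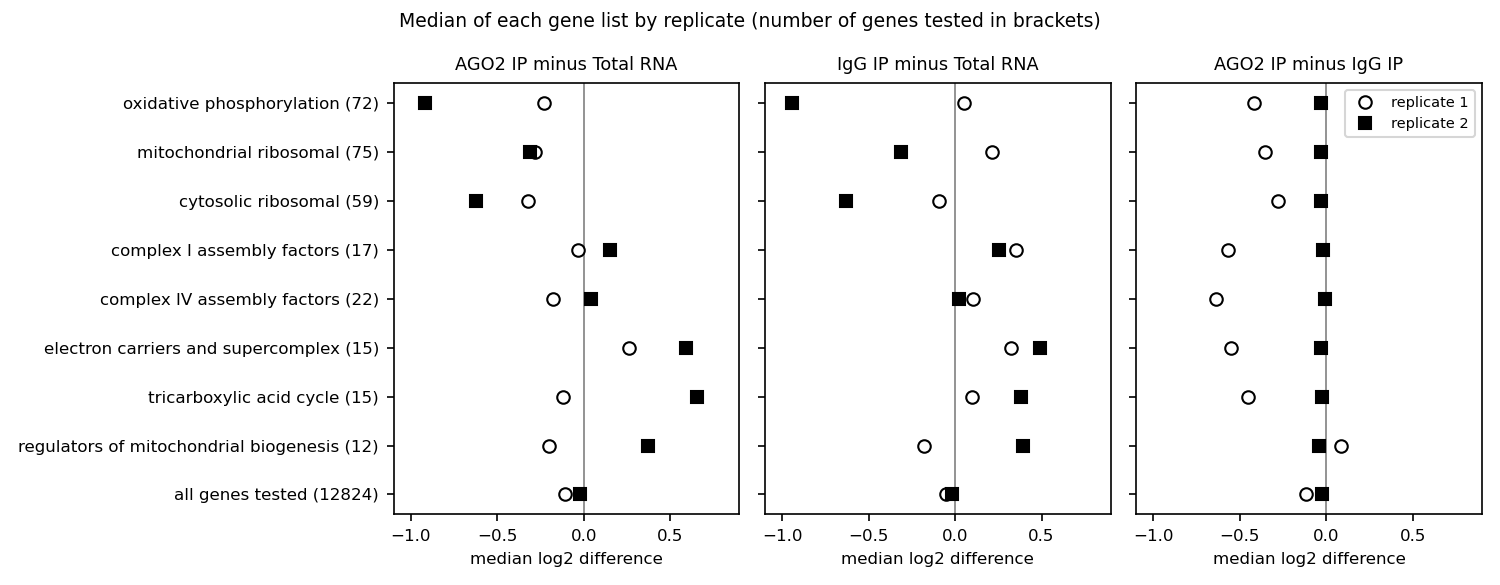
Median log2 difference of the members (top) and of other gene lists, with the number of genes tested in brackets, in replicate 1 (open circles) and replicate 2 (filled squares) for the 3 fraction comparisons. The members have the lowest replicate 2 median of the lists drawn in AGO2 IP (-0.92) and IgG IP (-0.95) against Total RNA, and every list lies near 0 for AGO2 IP minus IgG IP in replicate 2.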

How the data were processed

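The members and gene lists were chosen with earlier results of these data known. RNA of 12 Jurkat samples was measured on Affymetrix arrays, 1 array each. The deposited values are log2 intensities from RMA, per the submitters' processing notes; whether all 12 arrays were normalized together, and the RMA version, is not given in the sources used here. For arrays, their number limits the precision.

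Of 54675 probe sets, 41097 list 1 gene symbol and 1801 several, which were left out with those that list none; the 62 controls were left out. Symbols came from the platform annotation, and 41043 of the single symbols matched RefSeq. Each of 19775 genes was represented by its probe set of highest mean, and the 12824 with a mean of at least 4.02 (the median over all non-control probe sets) were tested with limma 3.58.1 in R 4.3.3 with data.table (version 1.17.8). Tables and figures used Python 3.11.15, pandas 2.3.3 and matplotlib 3.10.9. One model held the 6 group means without a replicate term (6 residual degrees of freedom, prior 3.04). A call needed an adjusted p under 0.05 (Benjamini-Hochberg, over the 12824 genes). SEs and adjusted p-values printed for genes come from the same model with a block for the replicate number (5 and 4.11) unless another is named; models within a replicate (2 residual degrees of freedom) had fraction and construct as terms.

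The pairing comes from the replicate numbers in the labels: over 15 pairs of groups, arrays with 1 number deviated together from their groups' means, with correlations across genes of 0.468 to 0.873 (median 0.601). Across the members alone the correlations were lower, at 0.187 to 0.867 (median 0.305). The scripts were tested on simulated data.

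Named genes were every member called with the block, the highest and lowest of each complex in each fraction comparison, a fixed set of core subunits, and the 3 highest and 3 lowest by construct with the same sign in both replicates. NDUFV3, NDUFC1, COX6A1 and other members called within 1 replicate were singled out after their values were seen. Alternatives were the block, each replicate alone, median centring, quantile normalization, no filter, the mean of all probe sets of a gene, and leaving out arrays; centring on the genes tested was added after seeing the data.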

Additional observations from a re-analysis of the deposited data

How the results depend on the processing

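With 2 arrays a group, the replicate block decided whether anything was called: without it, limma called 0 members in every comparison that used all 12 arrays. AGO2 IP minus Total RNA called 22 members with the block, 32 within replicate 1 and 50 within replicate 2. With the block it called 25 after median centring, 22 after quantile normalization, 20 without the filter, 18 with the mean of all probe sets of a gene and 16 with centring on the genes tested. IgG IP minus Total RNA called 3 with the block, 5 within replicate 1 and 49 within replicate 2. With the block it called 3 after median centring, after quantile normalization and without the filter, 1 with centring on the genes tested and 0 with the mean of all probe sets. AGO2 IP minus IgG IP called 22 within replicate 1. The replicate block changed no other call.

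Without 2 arrays of replicate 2 (AGO2 IP of control vector cells, IgG IP of miR-21 cells), the block model called 20 members in AGO2 IP minus Total RNA, 0 in IgG IP minus Total RNA and 2 in AGO2 IP minus IgG IP. The members' construct medians were then 0.43 in IgG IP and -0.18 in AGO2 IP, and the interaction medians -0.65 (against IgG IP) and -0.13 (against Total RNA). A lone array is assumed to vary like the other groups.

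Leaving out 1 array at a time gave 0 to 26 calls in AGO2 IP minus Total RNA, 0 to 6 in IgG IP minus Total RNA and 0 in the others, over both models. The construct medians then ran from -0.55 to 0.45 in Total RNA, -0.27 to 0.39 in IgG IP and -0.17 to 0.22 in AGO2 IP. The interaction medians ran from -0.38 to 0.23 (against IgG IP) and -0.43 to 0.58 (against Total RNA). Without the block, a group left with 1 array carries the offset between the replicate numbers into these medians.

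Of 53 results for named genes, 7 changed sign under some setting; none of them passed with the block on all arrays. In AGO2 IP minus Total RNA these were COX4I2 (-0.16 within replicate 2), NDUFS1 (-0.090 within replicate 1), SDHD (-0.21 within replicate 1, -0.064 without the 2 arrays) and UQCRC1 (0.49 and 0.12 in the same order). In AGO2 IP minus IgG IP within replicate 2 they were NDUFV3 (-0.0016), SDHD (0.079) and UQCRC1 (-0.24). The cause of these changes was not tested.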
